A study of Mus musculus with 6 samples.

Results

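The mouse genome carries a small family of EHD genes, Ehd1, Ehd2, Ehd3 and Ehd4. All 4 were measured here in the stria vascularis of Errb mutant mice and of wild-type mice. The members were chosen by name: every probe set whose platform annotation gives exactly 1 gene symbol, that symbol being one of these 4. The rule found 12 probe sets for the 4 genes, 4 for Ehd1, 5 for Ehd2, 2 for Ehd3 and 1 for Ehd4, of 45037 probe sets and 18193 genes in all. Errb, also called Nr3b2 and now named Esrrb, encodes estrogen-related receptor beta, a nuclear receptor with no known natural hormone. The mutants carry a conditional knock-out of this gene; which part was deleted, which Cre was used and in which strain could not be read from the labels. Total RNA came from 3 pools of Errb mutant tissue and 3 pools of wild-type tissue, each made from 10 mice and hybridised to 1 Affymetrix array. The sample labels name stria vascularis and the design text names inner ears. The label of wild-type replicate 1 adds an age between postnatal days 3 and 5, and the labels of the other pools give no age. Nothing in the labels says more about how the pools were kept separate, so the spread between them may be partly technical.

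EHD proteins are membrane-binding ATPases of the dynamin superfamily. They assemble on tubular membranes and help return internalised receptors and channels from endosomes to the cell surface, and their C-terminal EH domain binds partner proteins that carry an asparagine-proline-phenylalanine motif. The stria vascularis lines part of the cochlear duct and pumps potassium into the endolymph, and its marginal cells depend on channels and transporters held at the correct membrane face.

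Esrrb encodes a DNA-binding receptor, so the sequence upstream of the EHD genes is shown before their values. The RefSeq promoter table, build GRCm38.p6, matched 3 of the 4 genes. The 250 bases before the annotated start of each gene are printed 5′ to 3′ on the strand of the gene, in lower case, with capitals for the nuclear receptor half-site AGGTCA.
Ehd3, chr17:73804591-73804840, plus strand: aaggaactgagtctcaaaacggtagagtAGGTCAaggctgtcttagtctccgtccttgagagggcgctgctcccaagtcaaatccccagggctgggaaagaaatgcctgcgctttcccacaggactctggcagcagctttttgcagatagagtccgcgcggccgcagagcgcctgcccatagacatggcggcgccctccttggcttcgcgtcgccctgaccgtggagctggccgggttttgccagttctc
Ehd2, chr7:15967536-15967785, minus strand: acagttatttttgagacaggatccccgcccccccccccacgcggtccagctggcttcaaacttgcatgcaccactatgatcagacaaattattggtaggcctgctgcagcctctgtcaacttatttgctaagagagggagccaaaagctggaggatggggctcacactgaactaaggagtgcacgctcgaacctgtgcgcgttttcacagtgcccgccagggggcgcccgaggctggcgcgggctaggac
Ehd4, chr2:120154576-120154825, minus strand: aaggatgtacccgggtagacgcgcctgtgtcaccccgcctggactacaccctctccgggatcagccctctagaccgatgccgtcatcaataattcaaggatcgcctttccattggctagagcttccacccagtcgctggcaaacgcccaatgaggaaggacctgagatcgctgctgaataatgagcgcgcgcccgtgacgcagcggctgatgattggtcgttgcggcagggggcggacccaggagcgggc

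The longer element TNAAGGTCA, the extended half-site that estrogen-related receptors are known to bind, was found on neither strand of these 3 windows, and 1.14% of the 32851 promoter windows of the same length in the table hold it. The half-site AGGTCA, which is contained in that element, occurred 1 time upstream of Ehd3, on the plus strand, 222 bases before the start of the gene. Upstream of Ehd2 and of Ehd4 it occurred 0 times. It was found on either strand in 14.0% of all windows, so its presence upstream of 1 of 3 genes is a description of these letters and not of binding. The windows were alike in base composition, with 60.0% G and C and 16 CpG in Ehd3, 58.0% and 12 in Ehd2, and 61.2% and 21 in Ehd4.

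Ehd3 was the member whose level differed between the genotypes. It encodes an EHD protein known from other cells to act on early endosomes and on transport between endosomes and the Golgi. Its best expressed probe set, 1417235_at, read 7.46, 8.46 and 8.15 (log2) in Errb mutant replicates 1 to 3. In wild-type replicates 1 to 3 it read 9.50, 10.67 and 9.95. The highest mutant array lay 1.04 below the lowest wild-type array, so the genotypes did not overlap. The means were 8.02 ± 0.51 in the mutant and 10.04 ± 0.59 in wild type (SD, n = 3 each). Taken within same-numbered pairs of arrays, mutant minus wild type was -2.04, -2.21 and -1.80, a mean of -2.02 ± 0.21 (SD of 3 pairs), which puts the mutant level at 0.247 times that of wild type. The difference was thus several times the spread between pairs. Only 6 probe sets on the array had a more negative mean difference. With 1 probe set per gene, the best expressed, Ehd3 ranked 4th among 18193 genes in this direction. No test is given for this or any other Ehd difference, because the family was picked with the result of this contrast in view.

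The second Ehd3 probe set, 1417236_at, gave 6.91, 8.05 and 7.71 in mutant replicates 1 to 3, against 8.06, 10.17 and 9.94 in the wild-type replicates. The genotypes again did not overlap, but only by 0.0067, since wild-type replicate 1 read far below its fellow wild-type arrays and close to mutant replicate 2. Its pair differences were -1.15, -2.11 and -2.23, with a mean of -1.83 ± 0.59. In pair 1 the difference was therefore smaller by 0.89 than that of the first probe set, in pair 2 the probe sets differed by 0.10, and in pair 3 the second was the more negative by 0.43. Without pair 1 its mean difference was -2.17.

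Pair 1 was also the pair with the widest gap between 3' and 5' control probe sets, a sign of RNA quality. For Gapdh that gap was 2.57 in the mutant and 2.28 in wild type in pair 1. In pair 2 it was 0.16 in the mutant and 0.20 in wild type, and in pair 3 it was 0.51 in the mutant and -0.04 in wild type. Pair 1 also had the largest difference in neuron markers, a list median of 3.12 against 0.34 in pair 2 and 0.24 in pair 3. The part of RNA quality or of neuron RNA in the smaller difference of 1417236_at in pair 1 was not tested.

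Among all probe sets, 8.41% were lower in the mutant in each of the 3 pairs, as were both of Ehd3, and 0.306% had every mutant array below every wild-type array, as did both of Ehd3. The signal of Ehd3 in the mutant was not at the bottom of the range of the arrays. Its best expressed probe set stood at the 74.1 to 76.8 percentile of all probe sets on the mutant arrays, against the 93.8 to 95.6 percentile on the wild-type arrays. The second stood at the 65.4 to 70.6 percentile in the mutant and at the 81.5 to 94.1 percentile in wild type.

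**Figure D1:**
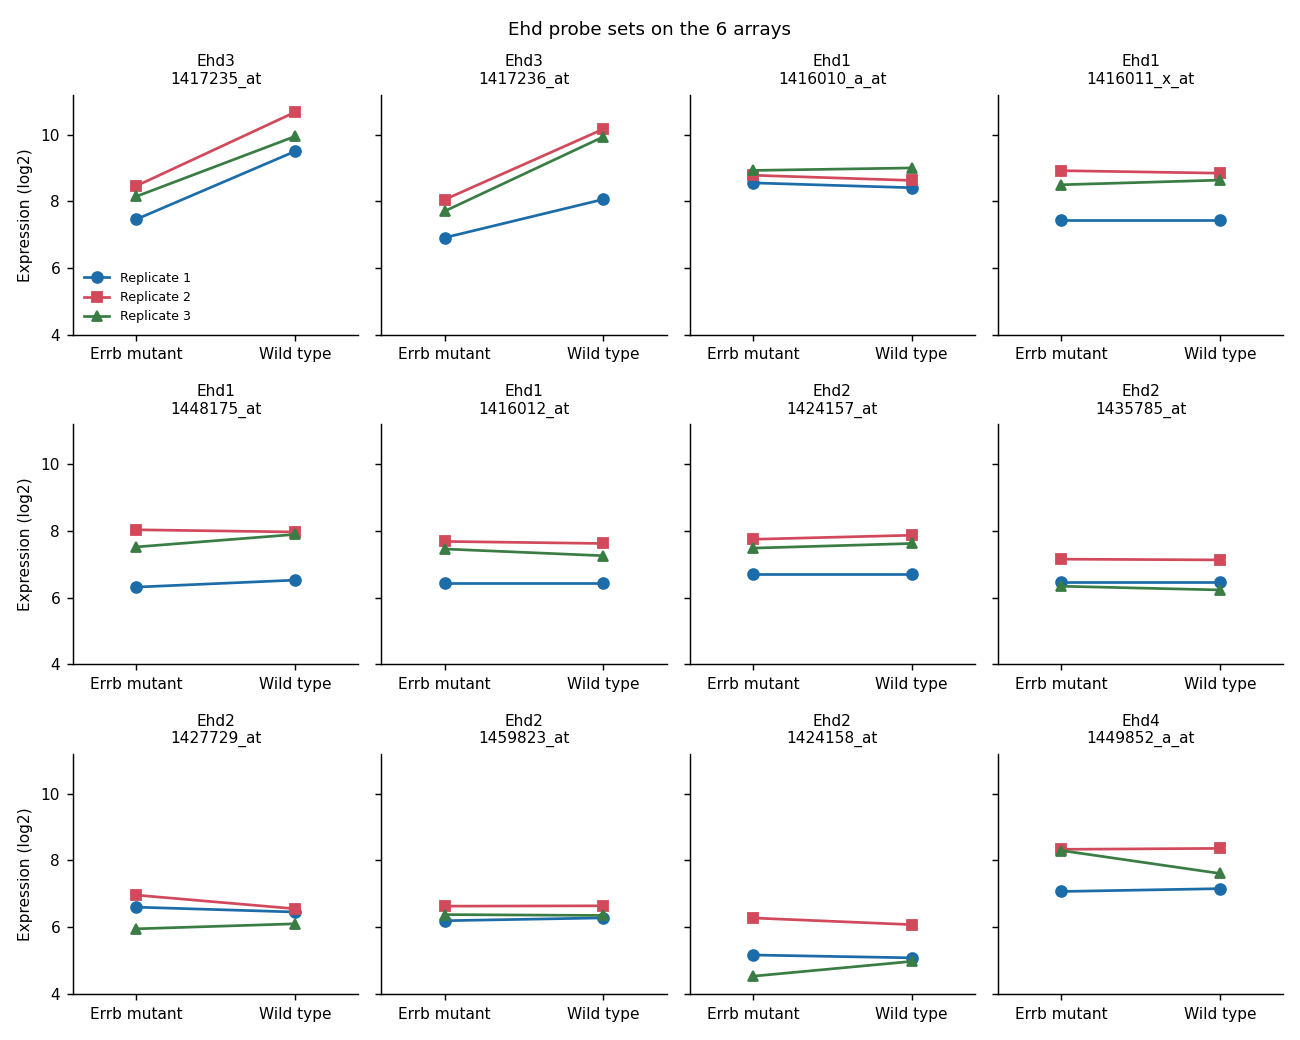
Expression values (log2, vertical axis) of the 12 Ehd probe sets on each array, with Errb mutant at the left and wild type at the right of each panel and lines joining arrays of the same replicate number. Both Ehd3 probe sets are lower in the mutant in all 3 pairs, and the genotypes overlap in the other 10 panels.

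Ehd1 encodes the founding recycling-endosome member, which returns receptors such as the transferrin receptor to the plasma membrane. Its best expressed probe set, 1416010_a_at, read 8.55, 8.78 and 8.93 in mutant replicates 1 to 3, and 8.41, 8.63 and 9.00 in the wild-type replicates. The genotypes overlapped almost fully, and the mean difference was 0.08 ± 0.13. The other 3 probe sets of Ehd1 had mean differences of -0.02 ± 0.11 for 1416011_x_at, -0.17 ± 0.22 for 1448175_at and 0.09 ± 0.10 for 1416012_at. Over all 4 Ehd1 probe sets and 3 pairs, single differences lay between -0.37 and 0.20. The suffix of 1416011_x_at marks a probe set that may also bind other transcripts. Whether Ehd1 probes bind Ehd3 transcripts was not tested.

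Ehd4 encodes a member known to act on early endosomes. Its only probe set, 1449852_a_at, read 7.07, 8.34 and 8.30 in mutant replicates 1 to 3, against 7.16, 8.36 and 7.61 in wild type. Mutant and wild type were near equal in pairs 1 and 2 (-0.08 and -0.03), whereas in pair 3 the mutant was higher by 0.69. The mean of 0.19 ± 0.43 was smaller than the spread between pairs, and it was -0.06 without pair 3. No other pair difference of Ehd1, Ehd2 or Ehd4 was as large as that of Ehd4 in pair 3.

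Ehd2 encodes the member that sits at the neck of caveolae and is abundant in endothelium, muscle and fat. Its best expressed probe set, 1424157_at, read 6.71, 7.75 and 7.49 in mutant replicates 1 to 3, and 6.71, 7.87 and 7.62 in wild type. The mutant was equal to wild type in pair 1 and slightly lower in the others, with a mean difference of -0.09 ± 0.08. Among the other 4 probe sets the mean difference was 0.04 ± 0.06 for 1435785_at, 0.14 ± 0.28 for 1427729_at, -0.02 ± 0.06 for 1459823_at and -0.05 ± 0.34 for 1424158_at. The signs of the 5 probe sets were mixed. The widest single differences were -0.44 and 0.41, on 1424158_at in pair 3 and on 1427729_at in pair 2. RefSeq lists Ehd2 as an older synonym of Ehd3; the probe sets were matched by gene identifier, so this does not mix the genes here.

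Taken over the 10 probe sets of Ehd1, Ehd2 and Ehd4, mean differences ran from -0.17 to 0.19 and the genotypes overlapped in all 10. That overlap says little by itself, since only 0.306% of all probe sets had every mutant array below every wild-type array. Of their 30 pair differences 12 were below 0, 14 above 0 and 4 exactly 0. None of the 10 kept 1 sign in all 3 pairs, where 20.5% of all probe sets did. All 4 exact zeros were in pair 1, in which 34.2% of all probe sets had equal values on the mutant and wild-type arrays. In such probe sets pair 1 adds no information on a difference. Among all genes, 12.7% had an absolute mean difference at or above 0.19, the largest of the 3 paralogs by best expressed probe set.

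**Figure D2:**
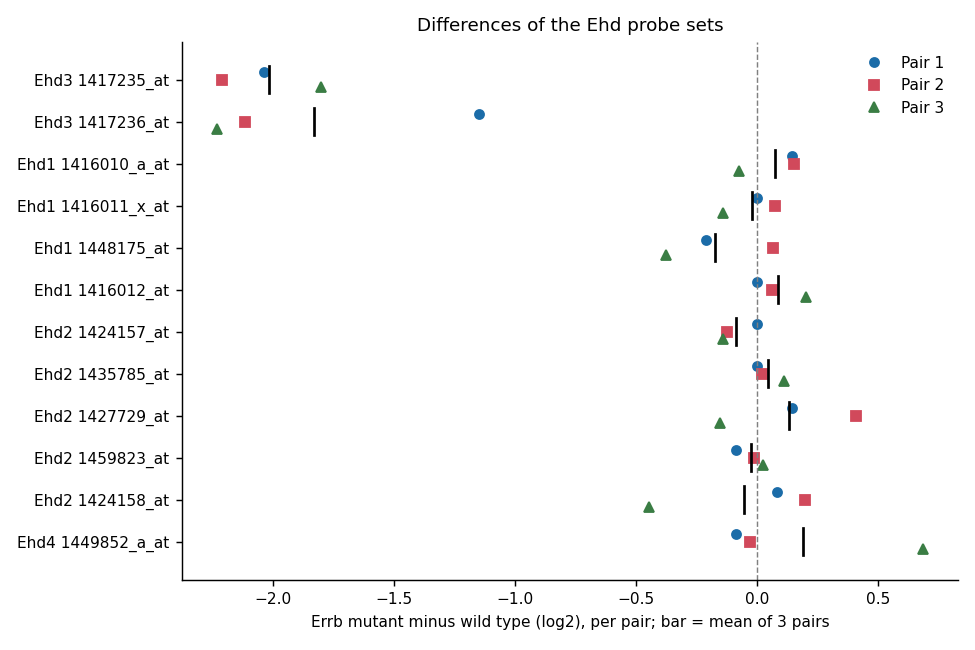
Difference between Errb mutant and wild type (log2, horizontal axis) for each Ehd probe set, with 1 symbol per pair and a bar at the mean of 3 pairs. The Ehd3 symbols lie between -2.23 and -1.15, and those of the other 10 probe sets between -0.44 and 0.69.

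Setting Ehd3 against each paralog within the same pair removes any shift common to all probe sets of an array. The Ehd3 difference minus the Ehd1 difference was -2.18, -2.37 and -1.73 in pairs 1 to 3, with a mean of -2.09 ± 0.33. Against Ehd2 the mean was -1.93 ± 0.23, and against Ehd4 it was -2.21 ± 0.27. Against the mean of the 3 paralogs the values were -2.06, -2.21 and -1.96, with a mean of -2.08 ± 0.13. This last comparison varied less between pairs than the Ehd3 difference itself (SD 0.21), whereas each comparison with a single paralog varied more. When all probe sets of each gene were averaged, Ehd3 minus the mean of the paralogs was -1.99. None of these values carries a test, for the reason given above. By best expressed probe set the highest paralog mean was that of Ehd4, 0.19 ± 0.43.

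The lower level of Ehd3 was seen beside lower levels of strial marker genes. In bulk tissue, fewer cells of a type and less RNA per cell cannot be told apart. The 6 marginal cell markers had a mean log2 level of 7.98 to 9.01 on the mutant arrays, against 9.65 to 10.67 on the wild-type arrays. Their median difference was -1.31, with -1.48, -1.41 and -1.13 in pairs 1 to 3. Of the 6 markers 5 were lower in every pair, where 9.03% of all genes were. Kcne1, the accessory subunit of the apical potassium channel, differed most, by -4.52, -3.97 and -4.45 in pairs 1 to 3, further than Ehd3 in each pair. Kcnq1, the pore subunit of that channel, differed by -1.67 ± 0.17, and Slc12a2, which brings in potassium together with sodium and chloride at the basolateral face, by -1.22 ± 0.18. Esrrb itself, the sixth of these markers, had 3 probe sets, none of which passed. They differed by -0.07 ± 0.21 (the best expressed, of the _x_at class that may bind other transcripts), -0.18 ± 0.43 and -0.42 ± 0.46; whether any lies in the deleted part is unknown, so they check nothing about the labels. In the paired limma fit 3 of the 6 passed, all lower: Kcne1, Kcnq1 and Slc12a2. Of all genes 0.148% passed in that fit. The part of marginal cell number in the Ehd3 result was not tested.

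Of the intermediate cell markers 0 of 5 passed in the same fit, with a median difference of -0.68. Their mean levels were 8.14 to 8.95 in the mutant and 8.61 to 9.69 in wild type. Lower in every pair were 4 of the 5, where 9.03% of all genes were. These were Tyr (-1.13 ± 0.23), Kcnj10 (-0.73 ± 0.28), Dct (-0.68 ± 0.08) and Pmel (-0.60 ± 0.15), whereas Tyrp1 differed by 0.04 ± 0.20. Of the basal cell markers 1 of 3 passed, the connexin gene Gjb6 (-1.27 ± 0.14), and all 3 were lower in every pair. Gjb2, also a connexin gene, differed by -0.72 ± 0.32 and Cldn11 by -0.37 ± 0.16, and neither passed. The list median was -0.72, with mean levels of 10.62 to 12.01 in the mutant and 11.57 to 12.77 in wild type. The mean levels of the markers of all 3 strial layers lay above the array medians, 6.07 to 6.95, on every array, although single markers were dimmer, such as the pigment enzyme gene Tyrp1 (4.87 to 5.52 in the mutant and 4.99 to 5.53 in wild type). Endothelial markers, from a cell type known to express Ehd2 and, in some vascular beds, Ehd3, had a median of -0.20 over 6 genes, with mean levels of 6.88 to 8.38 in the mutant and 7.35 to 8.57 in wild type. Markers of pericytes and smooth muscle (-0.05), skeletal muscle (-0.05), adipocytes (0.02), macrophages (0.01) and fibrocytes (-0.01) had medians near 0. Those of skeletal muscle and of adipocytes were dim, at mean levels of at most 5.77 and 5.00 on any array. The fibrocyte medians were -0.29, 0.08 and 0.03 in pairs 1 to 3. Of these 4 markers Otos was lower in every pair (-0.52 ± 0.46), as were 9.03% of all genes. Car3 was higher in every pair (0.04 ± 0.006), as were 12.9% of all genes. Neuron markers had a median of 1.17, from 3.12 in pair 1 and 0.34 and 0.24 in the others. Their mean level was 5.54 to 8.02 in the mutant, against 5.25 to 5.83 in wild type. Schwann cell markers (0.13) and erythroid markers (-0.45) rested on 2 genes each.

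The genes that work with EHD proteins were examined as 8 lists of partners, membrane carriers and cargo, in all 91 genes of which 87 were measured. Differences were tested with limma in the fit that pairs arrays by replicate number, adjusted over all 45037 probe sets. In that fit 0.148% of all genes passed an adjusted p of 0.05, 3 higher and 24 lower in the mutant. Of the 87 genes 0 passed, with limma adjusted p from 0.434 to 0.999. With so small a share passing, 0 calls in all 87 or in any single list says little about their genes. At an unadjusted p under 0.05 the list genes numbered 3 of 87, where 7.35% of all genes did. These 3 were Rab11fip2 and Amph, higher in the mutant, and Cavin3, lower. Without the replicate block 0 of the 87 passed and 0 had an unadjusted p under 0.05, where 0.0055% and 0.308% of all genes did. Lower in all 3 pairs were 8 of the 87, against 9.03% of all genes, and higher in all 3 pairs were 11, against 12.9%. The median of the 87 was -0.0007, beside -0.003 over all probe sets. The largest absolute difference among them was 0.30. Their distance from the Ehd3 value of -2.02 says little about them, since only 3 of 18193 genes had a larger mean fall than Ehd3.

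**Figure D3:**
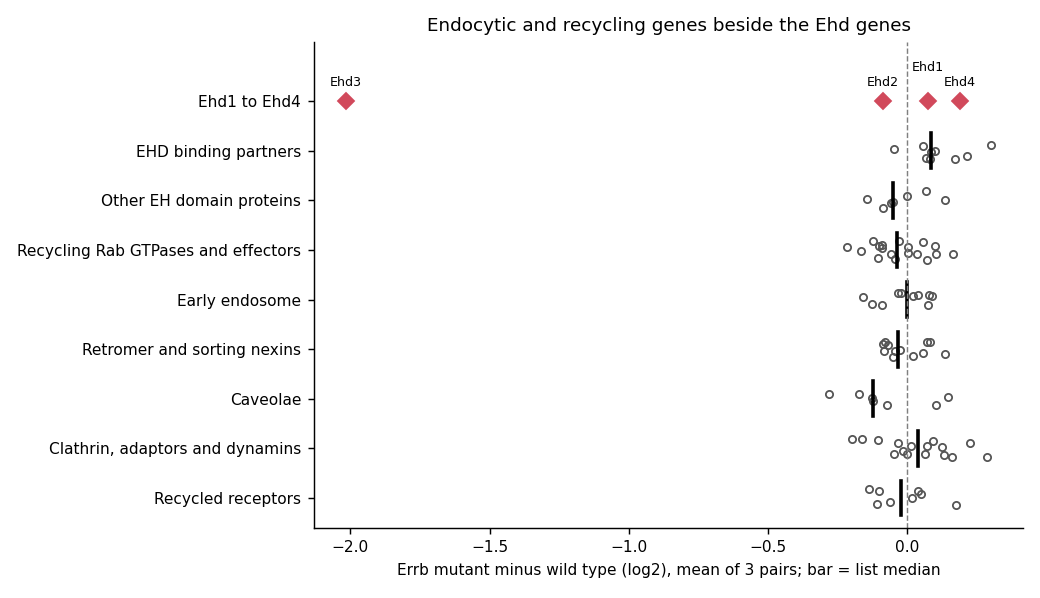
Mean difference between Errb mutant and wild type (log2, horizontal axis) of Ehd1 to Ehd4 by best expressed probe set (diamonds) and of the 87 measured genes in 8 lists (circles; vertical scatter within a row has no meaning), with bars at list medians. Ehd3 stands at -2.02 and the 87 genes lie between -0.28 and 0.30. The Ehd family was picked with the result of this contrast in view.

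The 9 measured EHD binding partners had a median of 0.09, and 0 of 9 passed. Micall1, a scaffold of tubular recycling endosomes, differed by 0.08 ± 0.17, and Numb, an endocytic adaptor with the motif that EH domains bind, by 0.06 ± 0.07. Rab11fip2, an effector that links EHD proteins to the GTPase Rab11, had the largest difference of all 8 lists. It read 8.39, 8.49 and 7.78 in mutant replicates 1 to 3, against 8.16, 8.20 and 7.38 in wild type. The mutant was higher in each pair, with a mean of 0.30 ± 0.09, though the genotypes overlapped and the limma adjusted p was 0.434. The 7 other EH domain proteins, which act mostly in clathrin-mediated uptake, had a median of -0.05 and 0 passed. Eps15, an early clathrin coat component, differed by -0.08 ± 0.08, Itsn1, a coat scaffold, by 0.14 ± 0.14, and Reps1, a partner of Ral signalling, by -0.14 ± 0.31.

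The 18 recycling Rab GTPases and effectors had a median of -0.03 with 0 passing. Rab14 differed by 0.10 ± 0.09 and the small GTPase Arf6 by -0.09 ± 0.22, while Myo5b, the motor that carries Rab11 vesicles in epithelia, had the largest difference of the list at -0.22 ± 0.19. The 10 early endosome genes had a median of 0.0002 and 0 passed, with Rab5a at -0.09 ± 0.15, the sorting protein gene Hgs at 0.02 ± 0.06 and Rab5b at -0.16 ± 0.30. Among the 12 genes of retromer and sorting nexins, which retrieve cargo from endosomes, the median was -0.03 and 0 passed. Snx17 differed by 0.08 ± 0.04, Snx3 by -0.02 ± 0.11 and Snx27 by 0.14 ± 0.14. The 16 genes of clathrin, its adaptors and dynamins had a median of 0.04 with 0 passing. The clathrin chains Clta and Cltc differed by 0.13 ± 0.06 and 0.06 ± 0.16, and Amph, the amphiphysin gene, by 0.29 ± 0.22.

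Caveolar genes bear on Ehd2, whose protein binds caveolae. Their 7 measured members had a median of -0.12, and 0 of 7 passed. Cavin2, a caveolar coat gene, differed by 0.10 ± 0.13 and Cav2, a caveolin gene, by -0.12 ± 0.44. Cavin3 read 8.08, 9.17 and 8.80 in mutant replicates 1 to 3, against 8.58, 9.25 and 9.05 in wild type. It was lower in each pair, with a mean of -0.28 ± 0.21 and a limma adjusted p of 0.644. The best expressed Ehd2 probe set, at -0.09, lay inside the range of the caveolar list, from -0.28 to 0.15. So did that of Ehd1, at 0.08, and the median absolute difference over all genes was 0.0725. Lying inside this range therefore does not link Ehd2 to the caveolar genes.

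Receptors known to be recycled through these endosomes showed no call in either direction. The 8 measured had a median of -0.02. B2m, the light chain of class I molecules, differed by -0.11 ± 0.21, Igf1r, a growth factor receptor, by 0.04 ± 0.42, and Lrp1, an endocytic receptor, by 0.18 ± 0.45. Each of these means was smaller than its spread between pairs. These are transcript levels and say nothing of where the proteins were in the cell.

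The genes most like Ehd3 in this contrast were found by the Euclidean distance between their 3 pair differences and those of Ehd3, over 18189 other genes by best expressed probe set. The 5 nearest were Rspo3 (distance 0.19), Atp13a5 (0.38), Nfe2l3 (0.58), Nipal1 (0.60) and Rnf152 (0.61), and the next gene stood at 0.62. The median distance over all genes was 3.51. The measure rests on 3 numbers per gene from the contrast that chose Ehd3, so nearness is a description and no test is given.

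Rspo3, which encodes a secreted enhancer of Wnt signalling, read 7.57, 7.41 and 7.04 in mutant replicates 1 to 3, against 9.48, 9.60 and 8.69 in wild type. Its pair differences of -1.92, -2.19 and -1.66 followed those of Ehd3 most closely. Atp13a5, a P-type ATPase gene, read 5.29, 5.85 and 5.11 in the mutant, against 6.95, 8.01 and 6.87 in wild type. Like Rspo3, Nipal1 and the best expressed Ehd3 probe set, it had its largest difference in pair 2. The other probe sets of Ehd3 and of Atp13a5 had theirs in pair 3. Nipal1, a gene of the magnesium transporter family, differed by -1.72 ± 0.07, Nfe2l3, which encodes a basic leucine zipper factor, by -1.76 ± 0.32, and Rnf152, a ubiquitin ligase gene, by -1.86 ± 0.39. Of all probe sets 0.306% had every mutant array below every wild-type array. So did these 5, which were chosen for differences near those of Ehd3. The mean differences of the probe sets of a gene lay closer together for Ehd3 than for those of these genes with several probe sets. On every mutant array the best expressed probe sets of Atp13a5 and Nipal1 read below the array median, unlike that of Ehd3. The part of signal level in this agreement was not tested. The other probe set of Rspo3 differed by -0.44 ± 0.17, that of Nipal1 by -0.55 ± 0.17 and that of Atp13a5 by -1.55 ± 1.10. The other probe sets of Nfe2l3 differed by -0.50 ± 0.29 and -0.03 ± 0.13, and Rnf152 had only 1 probe set.

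**Figure D4:**
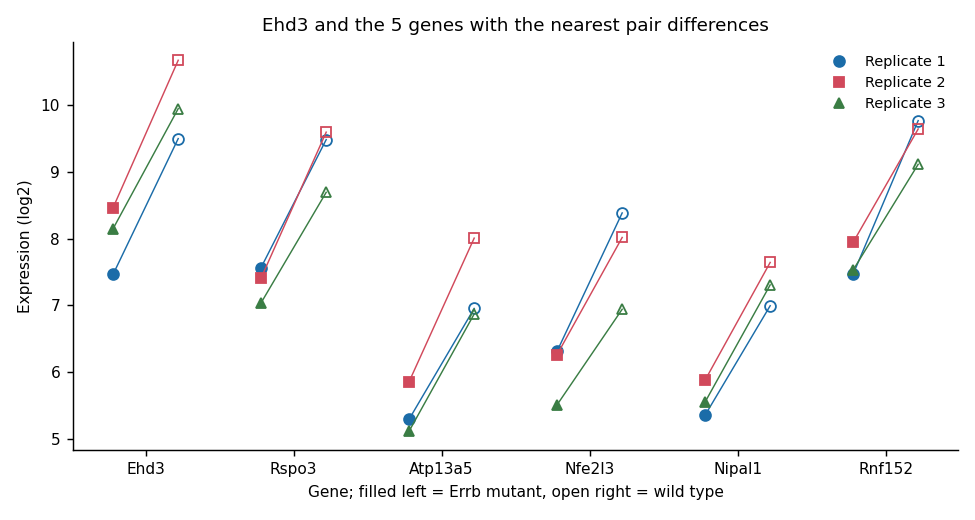
Expression values (log2, vertical axis) of Ehd3 and of the 5 genes with the nearest pair differences, with filled symbols at the left for Errb mutant, open symbols at the right for wild type and lines joining arrays of the same replicate number. In each gene every mutant array is below every wild-type array, and the 5 genes were chosen for differences near those of Ehd3.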

How the data were processed

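The table deposited by the authors holds log2 values, 1 per probe set and array, for which the submitters' processing notes name RMA with no version or settings; that the scale is log2 was inferred from the range of the values. Of 45101 probe sets, 64 controls were left out; of the 45037 tested, 34945 had 1 symbol, 932 several and 9160 none, and symbols were checked by gene identifier against RefSeq GRCm38.p6 (34741 matched, 0 changed). A gene was represented by its best expressed probe set over the 6 arrays. With 3 arrays per genotype, their number limits the precision.

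The members and lists were chosen with earlier results of these data known. Of the 91 pathway genes 4, and of the 60 cell type markers 5, had no match and are left out here. Besides the Ehd probe sets, the rule named the 5 genes with the nearest pair differences. Per pathway list it named genes that passed or else the 2 brightest and the 1 with the largest difference. Kcne1, Kcnq1, Slc12a2, Esrrb, Gjb6, Gjb2, Cldn11, Tyrp1, Tyr, Kcnj10, Dct, Pmel, Otos and Car3 were named from the marker list after their values were seen.

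Arrays were paired by the replicate numbers of the labels. The correlation of same-numbered arrays, after subtracting each genotype's mean, was 0.879, 0.818 and 0.746, over the limit of 0.1 set for pairing. Same-numbered arrays held exactly equal values for 15406, 1185 and 1398 probe sets, so each pair may have been processed separately by the authors, a step no source here records and one that could raise these correlations. Two-sided tests were run with limma 3.58.1 (lmFit and eBayes) under R 4.3.3, with genotype and replicate number as terms and Benjamini-Hochberg adjustment over all probe sets, and were tested on simulated data. Alternatives were no replicate block, quantile normalization, median centring, trend and robust options, a filter on level, leaving out probe sets ending in x_at or s_at, another threshold, averaging all probe sets of each gene and leaving out each pair.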

Additional observations from a re-analysis of the deposited data

How the results depend on the processing

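The Ehd3 difference of -2.02 stayed between -2.12 and -1.92 when each pair was left out in turn, under quantile normalization and under median centring. Dropping the replicate block cannot change this mean, because each replicate has 1 array per genotype. The difference of Ehd3 from the mean of its paralogs ranged from -2.13 to -1.99 over its 6 alternatives. Of these, median centring cannot change it, since it shifts all probe sets of an array alike. That of Ehd4 (0.19) took the other sign without replicate 3 (-0.06), and the small differences of 1416011_x_at, 1424158_at, 1427729_at and 1459823_at also changed sign under at least 1 alternative. In the fit over all probe sets, 5 higher and 37 lower passed with the pairing; with no replicate block 1 higher and 2 lower passed, with trend and robust options 8 higher, and at an adjusted p of 0.1, 13 higher and 79 lower. Leaving out a pair gave 0 to 3 higher and 0 to 4 lower, with 0 in both directions without replicate 2 or without replicate 3, where 1 residual degree of freedom remained. The 0 calls among the 87 pathway genes stayed 0 under all 10 alternatives run, a statement limited by how few probe sets passed in several of them.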
